A study of Mus musculus with 8 samples.

Results

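Chemokines are small secreted proteins that draw leukocytes along a concentration gradient through G protein-coupled receptors. They are grouped by the spacing of conserved cysteines into CC, CXC and CX3C families, with receptors named after the family they bind. Cytokines such as TNF, IL-1 and IL-6 act through NF-kB and STAT3 to switch on chemokines, the adhesion molecules that hold leukocytes at vessel walls, and feedback inhibitors such as Nfkbia and Socs3. In the pancreas these genes are best known from pancreatitis, in which injured acinar cells, macrophages and stromal cells make them and monocytes and neutrophils are recruited.

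The genes described are those whose symbol follows the chemokine ligand or chemokine receptor pattern of the CC, CXC and CX3C families, with 12 added by name (Il1a, Il1b, Il6, Il18, Il33, Tnf, Icam1, Vcam1, Nfkbia, Nfkbiz, Socs3 and Ptgs2). The rule found 68 of 36432 gene IDs: 38 chemokines, 18 chemokine receptors and the 12 added genes. Ccl25 had 2 IDs at overlapping positions, so there were 67 symbols. Members were chosen by name, but with earlier results of these data known.

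Poly(A) RNA of whole pancreas was sequenced from 8 mice of mixed strain aged 6 to 8 weeks. The 4 controls had the genotype Ptf1a-Cre +/KI, and the other 4 had Ptf1a-Cre +/KI with Gata6 lox/lox. Cre knocked into the Ptf1a locus was thus common to all 8 mice, and Ptf1a is expressed in the embryonic pancreas and later in acinar cells. The question set by the series title is what deletion of Gata6, a zinc finger transcription factor, does to expression in adult pancreas.

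The targeted gene went against the label. Gata6 was 2.76, 2.12, 2.62 and 2.45 rescaled FPKM in controls 1 to 4, and 4.81, 5.12, 4.90 and 4.12 in the libraries labelled Gata6-deleted (log2 fold change 0.72, SE 0.11, adjusted p = 0.0443; exact two-sided permutation p = 0.0286, the smallest that 4 against 4 can give). In 20 of the other settings tried its direction held but not its call, with limma adjusted p of up to 0.631. A gene-level value does not resolve the floxed exons, so the label was not checked by it. The second group is therefore called labelled libraries 1 to 4. Rescaled FPKM is the deposited FPKM divided by 100000, per length of transcript but not per fixed library size. Outside 8 digestive enzyme genes that were left out, fragments implied by the deposited intervals numbered 4815873 to 7451554 per library. These totals are thus not whole library depths, and the scaling to implied fragment totals given below uses them. Detection was uneven, with 18348 to 19732 genes above 0 in controls and 23034, 20199, 22720 and 19686 in labelled libraries 1 to 4. A value of 0 in a control can therefore mean too few fragments rather than no transcript. Labelled libraries 1 and 3 stood apart from the rest in most of what follows. The summed level of 6 acinar markers lay between 112669 and 166564 in controls, while labelled libraries 1 to 4 had 557, 56430, 7776 and 72311. The sample titles begin with BKD for control 1 and for labelled libraries 1, 3 and 4, which expressed Y-linked genes. They begin with ASK for controls 2 to 4 and with BSH for labelled library 2, which expressed Xist, so title prefix and sex were unevenly spread over the groups. Values within the prefixes below give BKD first, then ASK with BSH. Nothing in the labels says how the mice were related, so p-values measure the spread between these 8 samples.

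The summed level of chemokine transcripts was higher in each labelled library than in any control, by far the most in 2 of them. The 38 chemokines summed to 69.4, 61.4, 59.2 and 78.2 rescaled FPKM in controls 1 to 4. Their sums were 379, 95.1, 414 and 142 in labelled libraries 1 to 4. The sums of the groups did not overlap, with labelled libraries 1 and 3 far above the other 2. Most of the sum in labelled library 4 came from Cxcl13 (54.8) and Ccl9 (37.3), so it does not show a rise across the family there. The 18 receptors summed to 5.44, 6.78, 6.76 and 10.6 in the controls and 85.3, 16.8, 52.0 and 12.1 in the labelled libraries. The receptor sums did not overlap either, but labelled library 4 lay close to control 4. In whole tissue, more or fewer cells of a type and more or less RNA per cell cannot be told apart.

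The leading chemokines by group mean differed between the groups, but not in every labelled library. In the controls the highest mean levels, all in rescaled FPKM and so per length, were those of Cxcl13 (15.7), Ccl6 (10.4), Ccl9 (9.54), Cxcl12 (8.58) and Ccl11 (6.69). In the labelled libraries they were those of Ccl8 (63.7), Ccl6 (55.1), Ccl9 (37.9), Cxcl13 (28.8) and Cxcl12 (16.9). Ccl8 had a control mean of only 1.8. The highest in labelled library 4 were the same genes as in the controls. They were Cxcl13 (54.8), Ccl9 (37.3), Ccl6 (19.7), Cxcl12 (9.04) and Ccl11 (3.79), with Ccl8 at 3.61. Cxcl13 was only 5.54 in labelled library 1.

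No member passed the test over all genes with all 8 libraries. Of the 68 members 30 had a mean of at least 1 rescaled FPKM and were tested. Of these, 20 reached a mean of 1 in the controls alone, so that 10 passed the minimum only through the labelled libraries, where they were high. In limma with Benjamini-Hochberg adjustment over 11860 genes, 0 of 30 were called higher and 0 lower at an adjusted p under 0.05, against 0.219% and 0.194% of all genes. At an unadjusted p under 0.05 there were 13 higher and 0 lower, against 17.9% and 12.2% of all genes. The median log2 fold change of the 30 was 0.81, and that of all genes tested was 0.10. The sign was positive for 28 and negative for Ccl25 and Ccl11, whereas 57.9% of all genes tested were positive. Both turned positive when libraries were scaled to implied fragment totals (0.54 and 1.13), a scaling that moved the median of all genes to 1.14.

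One library decided the calls. Without labelled library 4, 13 of the 30 were called higher and 0 lower, against 11.5% and 10.1% of all genes. Among them were Ccl8, Cxcl16, Ccl6, Nfkbia, Ccl5, Ccl12, Il18, Cxcr4, Ccr2, Cx3cr1, Ccl21a and Ccl21c. Their adjusted p then ranged from 0.0321 for Ccl8 to 0.0488 for Ccl21c. Some of these passed the minimum only because they were high in the labelled libraries. Of the 20 members with a control mean of at least 1, 8 were called higher and 0 lower without labelled library 4, against 9.35% and 11.3% of the 10588 such genes, a count added after the data had been seen. With all 8 libraries, every labelled library lay above every control in 8 of the 30, against 10.9% of all genes tested, and every one below in 0, against 7.62%. Among the 8 were Ccl8, Ccr2, Ccl6, Cxcl16, Vcam1, Nfkbia and Cxcr7. Without labelled library 4 that count was 16, against 20.2% of all genes, and without labelled libraries 1 and 3 it was 8, against 12.7%. Without controls 1 to 4 in turn it was 9, 9, 8 and 11, against 14.7%, 14%, 12.4% and 14.3% of all genes, and without labelled libraries 1, 2 and 3 in turn it was 8, 11 and 8, against 11.4%, 16.3% and 11.4%. These counts with left-out libraries were added after the data had been seen. Over the 67 members above 0 in any library it was 13 higher and 0 lower, against 8.28% and 4.13% of the 25129 such genes. The 5 added were Ccl3, Ccl4, Cxcl17, Ccr3 and Cxcr3, all too low to be tested. Of the 13, 3 were at 0 in all controls, so that they could not have been lower.

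**Figure D1:**
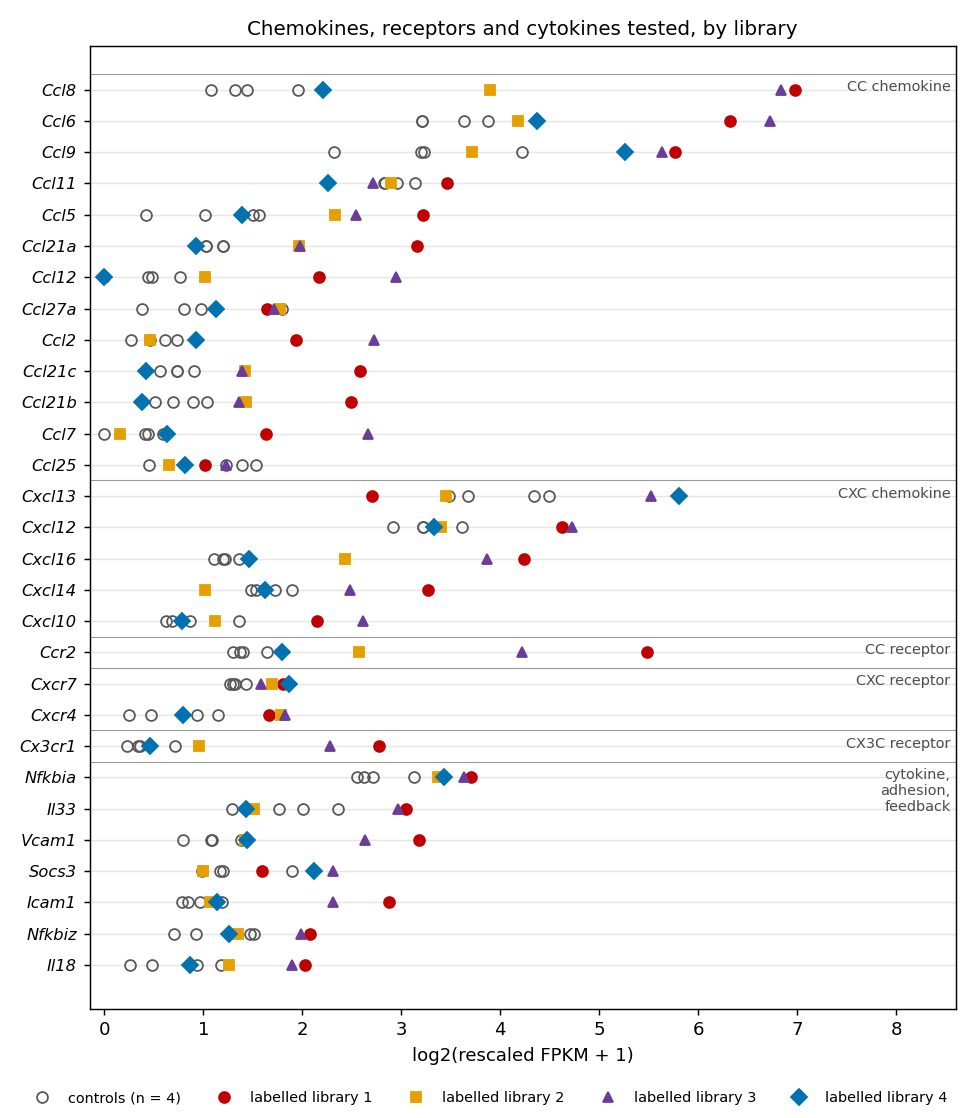
Levels of the tested members, 1 left out, as log2(rescaled FPKM + 1), 1 row per gene, with 4 controls as open circles and the 4 labelled libraries as filled symbols. Labelled libraries 1 and 3 lie to the right of every control in most rows, while labelled library 4 lies among or just above the controls except for Ccl9, Cxcl13, Nfkbia, Cxcr7 and a few others.

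The labelled libraries formed an order rather than a group. Labelled libraries 1 to 4 exceeded every control in 51, 29, 54 and 23 of the 67 members above 0, against 47.3%, 24.5%, 43% and 22.4% of all 25129 genes above 0. Of the 30 tested members they exceeded every control in 26, 16, 27 and 13, against 44%, 25.6%, 43.6% and 26% of all genes tested. The median difference of the 30 tested members from the control mean was 1.52, 0.51, 1.39 and 0.17 on the log2 scale in labelled libraries 1 to 4. In the controls it lay between -0.13 and 0.21. Labelled library 4 thus fell inside the range of the controls. Within the prefixes the median log2 fold change of the members was 1.12 and 0.54, where the medians of all genes were 0.10 and 0.00. Without labelled libraries 1 and 3 it was 0.32.

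**Figure D2:**
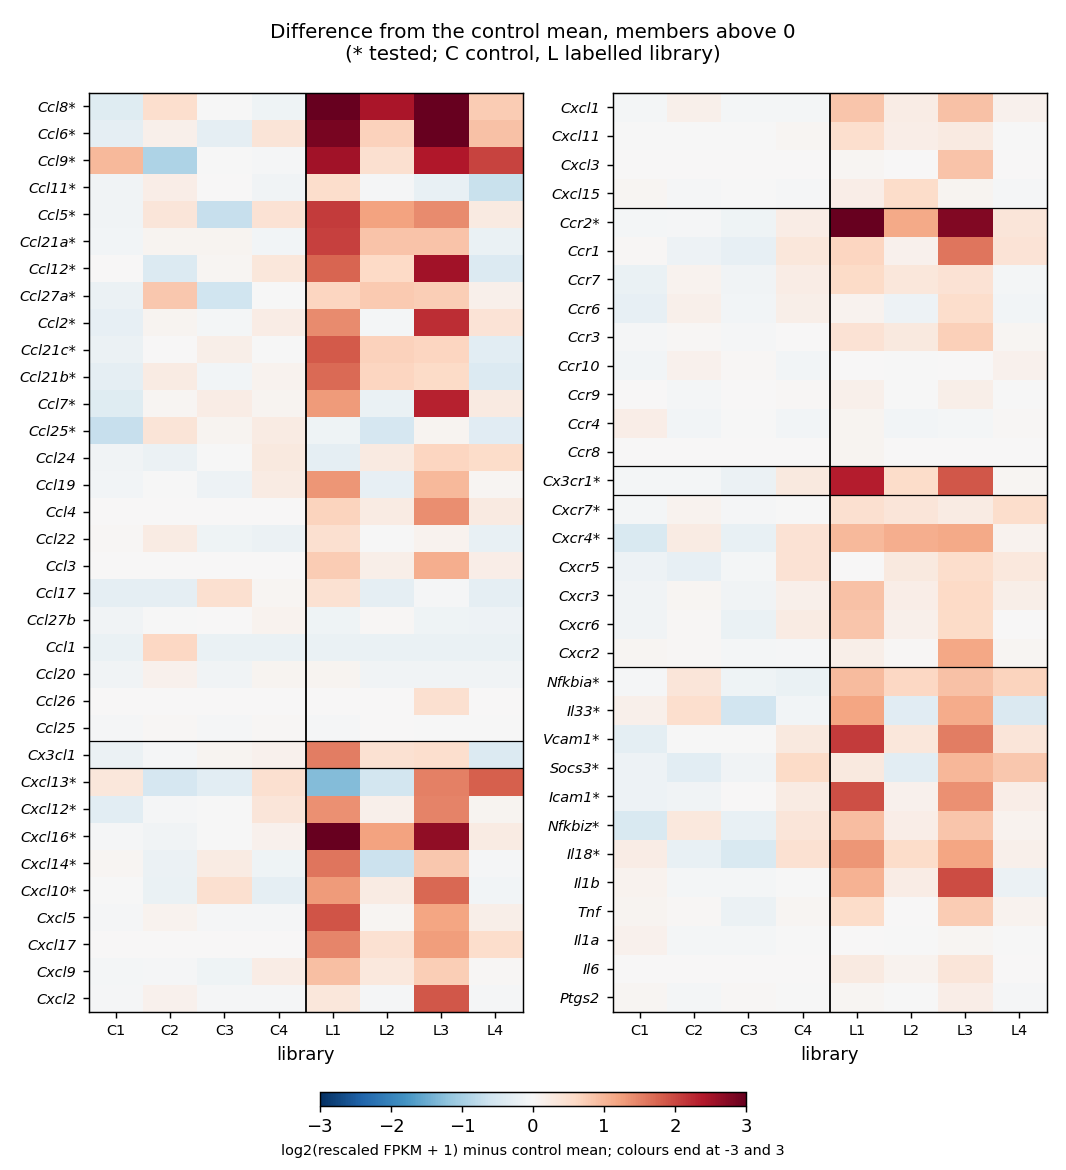
Difference of each library from the control mean on the log2(rescaled FPKM + 1) scale for the members above 0, 1 left out, in rows by family, with controls on the left of each panel and labelled libraries on the right. Strong colours in labelled libraries 1 and 3 include those of Ccl8, Ccl6, Ccl9, Cxcl16 and Ccr2 in both, and of Ccl12, Ccl7 and Ccl2 in labelled library 3, and many of the low members without an asterisk are near 0 in every library.

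Ccl8 and Ccr2, which encodes the monocyte receptor CCR2, had the largest log2 fold changes of the members named here. CCR2 brings monocytes out of the bone marrow and into inflamed tissue, and Ccl2, Ccl7 and Ccl12 encode its ligands, with Ccl8 a further member of the same monocyte chemoattractant group. Ccl8 (chromosome 11, 81928687 to 81930301, mm9) was 1.11, 2.87, 1.72 and 1.5 rescaled FPKM in controls 1 to 4. It was 125, 13.9, 113 and 3.61 in labelled libraries 1 to 4. The groups did not overlap, but labelled library 4 was only just above control 2. The ratio of means was 35.4 and the log2 fold change 3.53 (SE 1.00, adjusted p = 0.106), with 4.26 and 2.32 within the prefixes. It was 1.60 without labelled libraries 1 and 3. Each Ccl8 value rested on 3.0 to 1657 implied fragments.

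Ccl2, which encodes MCP-1, was 0.203, 0.524, 0.374 and 0.660 in the controls and 2.84, 0.381, 5.62 and 0.902 in the labelled libraries. Labelled library 2 lay within the controls, and the log2 fold change was 1.00 (SE 0.46, adjusted p = 0.180). Ccl7 was 0, 0.329, 0.505 and 0.362 in the controls and 2.11, 0.119, 5.33 and 0.553 in the labelled libraries (adjusted p = 0.244). Ccl12 was 0.355, 0, 0.394 and 0.699 against 3.5, 1.03, 6.69 and 0 (adjusted p = 0.217). In these 3 genes labelled library 3 was highest and labelled library 1 next, unlike Ccl8, in which the 2 libraries were close. With ASK and BSH titles alone the log2 fold changes of Ccl2 and Ccl7 were -0.13 and -0.32.

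Ccr2 (chromosome 9, 124016689 to 124028296) was 1.58, 1.64, 1.47 and 2.12 in the controls and 43.8, 4.95, 17.6 and 2.47 in the labelled libraries. No labelled library reached down to a control. The ratio of means was 10.1 and the log2 fold change 2.09 (SE 0.71, adjusted p = 0.121; 2.47 and 1.12 within the prefixes). Labelled library 1 led by far.

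The myeloid chemokines Ccl6 and Ccl9, made mainly by macrophages and neutrophils in mice, were already among the highest members in the controls. Ccl6 was 8.24, 11.4, 8.27 and 13.7 in controls 1 to 4 and 79.0, 17.1, 105 and 19.7 in labelled libraries 1 to 4. The groups did not overlap, with a ratio of means of 5.30 (log2 1.92, SE 0.59, adjusted p = 0.112). Within the prefixes its log2 fold change was 2.60 and 0.61. Ccl9 was 17.6, 4.00, 8.38 and 8.18 in the controls and 53.3, 12.1, 48.8 and 37.3 in the labelled libraries. Here labelled library 4 was far above the controls, but control 1 exceeded labelled library 2 (log2 1.85, SE 0.53, adjusted p = 0.106; 1.34 and 0.80 within the prefixes). The deposited intervals of Ccl9 were so wide that they implied as few as 0.0457 and at most 73.2 fragments.

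The inflammatory chemokines Ccl3, Ccl4 and Ccl5 were lower in level. Ccl5, which encodes RANTES and is made by T cells and macrophages, was 1.02, 1.83, 0.343 and 1.96 in the controls and 8.29, 4.04, 4.83 and 1.63 in the labelled libraries. Labelled library 4 lay within the controls (log2 1.25, SE 0.40, adjusted p = 0.115). Ccl3 and Ccl4, the macrophage inflammatory proteins, were listed at 0 in all 4 controls and above 0 in all 4 labelled libraries. Ccl3 was 0.701, 0.124, 1.14 and 0.144 there, and Ccl4 was 0.578, 0.189, 1.64 and 0.209. Both were highest in labelled library 3, on at most 25.0 and 27.0 implied fragments. Fewer genes were detected in the controls than in labelled libraries 1 and 3, so the control zeros do not show absence. Ccr1, a receptor of these ligands, was 0.407, 0.238, 0.151 and 0.745 in the controls and 1.13, 0.507, 3.16 and 0.827 in the labelled libraries, with labelled library 2 inside the controls.

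Cxcl16 and the CX3C pair had the same order of labelled libraries as Ccr2, with 1 highest, then 3, 2 and 4. Cxcl16 (chromosome 11, 70267485 to 70273486) encodes a membrane-bound chemokine and scavenger receptor of macrophages and dendritic cells. It was 1.29, 1.16, 1.32 and 1.56 in the controls and 17.9, 4.39, 13.6 and 1.75 in the labelled libraries, without overlap. The ratio of means was 7.07 (log2 1.78, SE 0.55, adjusted p = 0.113; 2.00 and 1.20 within the prefixes). Its locus overlaps Zmynd15, and reads of overlapping genes could have been split. Its receptor gene Cxcr6, of T and natural killer T cells, stayed low and overlapped (0.0683, 0.181, 0 and 0.355 against 1.03, 0.268, 0.711 and 0.149). Cx3cr1, the fractalkine receptor of monocytes and resident macrophages, was 0.286, 0.270, 0.174 and 0.639 in the controls and 5.85, 0.936, 3.87 and 0.381 in the labelled libraries (log2 1.21, SE 0.49, adjusted p = 0.149). Labelled library 4 lay within the controls. Its ligand gene Cx3cl1 was 0.238, 0.371, 0.494 and 0.520 in the controls and 3.04, 0.916, 0.978 and 0.0628 in the labelled libraries.

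The summed macrophage markers had the same order, and so did the summed dendritic cell markers. All 8 macrophage markers found (Lyz2, Cd68, Emr1, Csf1r, Cd14, Mrc1, C1qa and C1qb) had positive log2 fold changes. In 7 of the 8 the groups did not overlap, against 10.9% of all genes tested that were higher without overlap, and none passed. Their summed level was 96.9 to 153 rescaled FPKM in controls, against 790, 246, 679 and 199 in labelled libraries 1 to 4, with no marker at 0. Their median log2 difference from the control mean was 2.62, 0.91, 2.60 and 0.50. The 5 dendritic cell markers summed to 1.35 to 1.96 in controls and 12.1, 3.81, 6.07 and 1.62 in labelled libraries 1 to 4. Labelled library 4 was thus inside the controls for them. The part of macrophage or dendritic cell number in the values of Ccl6, Ccl8, Ccl9, Cxcl16, Ccr2 and Cx3cr1 was not tested. Fibroblast markers had medians of 1.85, 0.47, 2.46 and 0.47, and 4 of 6 were higher without overlap. Endothelial markers had medians of 0.30, -0.03, -0.03 and -0.20, and of 5 tested 0 were higher and 1 lower without overlap, against 7.62% of all genes lower. Adipocyte markers had medians of 2.19, 1.76, 1.37 and 1.42, with 1 of 6 called higher (Cidec, log2 1.95, adjusted p = 0.0363) and 4 of 6 higher without overlap. Islet markers had medians of 2.61, 0.72, 0.03 and -0.26.

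**Figure D3:**
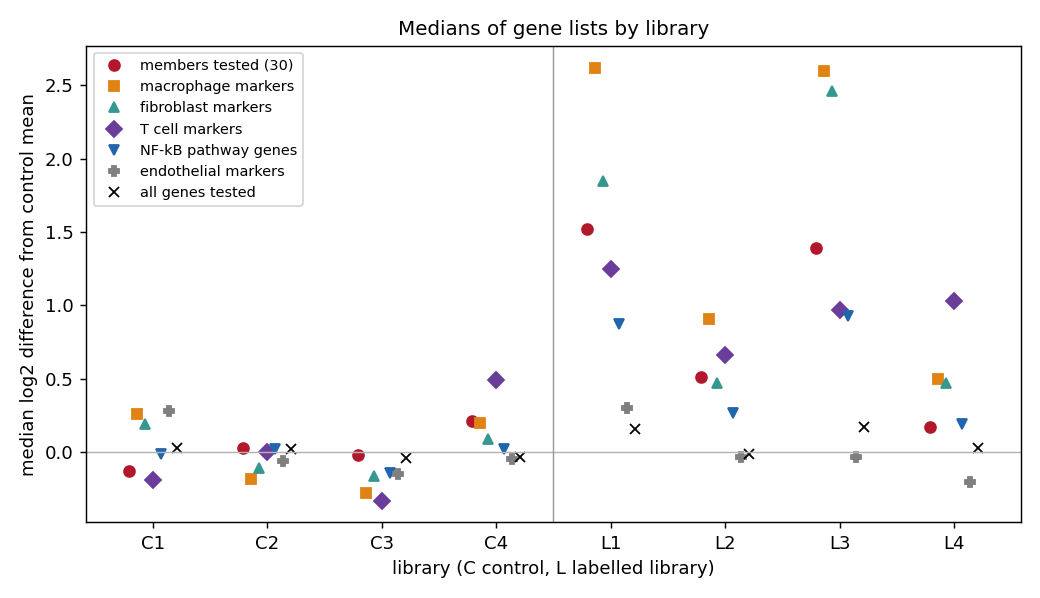
Median log2 difference from the control mean for the tested genes of each list, by library, with symbols offset sideways for legibility. The 30 members are at 1.52 and 1.39 in labelled libraries 1 and 3 and at 0.17 in labelled library 4, while endothelial markers and all genes tested stay near 0 in every library.

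The neutrophil chemokines Cxcl1, Cxcl2, Cxcl3 and Cxcl5, which act through CXCR2 and are classic NF-kB targets, had values at or near 0 in the controls. They lie within 1 cluster on chromosome 5 (91188325 to 91334935, mm9). Promoter sequences of RefSeq genes (GRCm38.p6) were at hand for 48 of the 67 symbols, and the 250 bases before the start were searched on both strands for the NF-kB consensus. It was found in 9 of the 48 promoters (18.8%) and in 3.75% of 27025 promoters of all genes. The 9 were those of Cxcl1, Cxcl2, Cxcl3, Cxcl10, Il6, Nfkbia, Ccl9, Ccl20 and Ccr3. TGANTCA, a form of the AP-1 motif, was in 6 of the 48 (12.5%) against 6.87%, and AGATAA, a form of the GATA motif, in 5 (10.4%) against 10.3%. A match is a description of the letters and not a bound site. Among the symbols with no entry were Ccl2, Ccl4, Ccl5, Ccl7, Ccl11, Ccl21c, Ccl24, Ccl26, Ccr7, Ccr10, Cxcl5, Cxcl11, Cxcl16, Cxcl17, Cxcr5, Cxcr7, Nfkbiz and Vcam1.

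The last 120 bases before the start are shown for the 3 neutrophil chemokine genes, in which the marked stretch is identical. They are also shown for Cxcl10, Il6 and Nfkbia, whose values are described below. Capitals mark the NF-kB consensus, and in the 3 neutrophil chemokine genes they mark 2 matches that overlap, 1 on each strand.
Cxcl1 (chr5:90891125-90891244, + strand): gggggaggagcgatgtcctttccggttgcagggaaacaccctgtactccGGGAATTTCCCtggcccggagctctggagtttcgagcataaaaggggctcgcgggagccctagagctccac
Cxcl2 (chr5:90903779-90903898, + strand): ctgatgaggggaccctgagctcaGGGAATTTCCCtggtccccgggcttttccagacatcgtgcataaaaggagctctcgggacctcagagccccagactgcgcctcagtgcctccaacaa
Cxcl3 (chr5:90785981-90786100, + strand): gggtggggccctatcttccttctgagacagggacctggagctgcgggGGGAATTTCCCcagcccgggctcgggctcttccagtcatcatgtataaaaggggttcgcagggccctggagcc
Cxcl10 (chr5:92348890-92349009, - strand): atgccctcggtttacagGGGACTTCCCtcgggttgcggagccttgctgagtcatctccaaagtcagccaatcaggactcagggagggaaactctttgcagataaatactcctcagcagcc
Il6 (chr5:30012994-30013113, + strand): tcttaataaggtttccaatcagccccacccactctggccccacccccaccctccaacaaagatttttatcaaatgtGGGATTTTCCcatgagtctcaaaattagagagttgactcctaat
Nfkbia (chr12:55492648-55492767, - strand): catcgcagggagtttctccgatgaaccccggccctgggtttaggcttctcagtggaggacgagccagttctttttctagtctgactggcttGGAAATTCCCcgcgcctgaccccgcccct

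The neutrophil chemokine genes had low values. Cxcl1 was 0, 0.151, 0 and 0 in the controls and 0.844, 0.212, 0.915 and 0.124 in the labelled libraries. Cxcl2 was 0, 0.120, 0 and 0 against 0.309, 0, 2.76 and 0. Cxcl3 was listed at 0 in all controls and was 0.0353, 0, 0.809 and 0 in the labelled libraries. Cxcl5, the epithelial member, for which no promoter was searched, was 0, 0.0992, 0 and 0 against 2.80, 0.0635, 1.33 and 0.155. Signal was thus nearly limited to labelled libraries 1 and 3, with Cxcl2 and Cxcl3 highest in library 3 and Cxcl5 in library 1. At most 75.4 implied fragments stood behind a value of these 4 genes, and none reached the minimum for testing. Their receptor gene Cxcr2 was 0.132, 0.114, 0.0393 and 0.0551 in the controls and 0.227, 0.108, 1.44 and 0.135 in the labelled libraries, and Cxcr1 was listed at 0 in all 8.

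Neutrophil markers did not separate the groups. The sum of 7 markers lay anywhere from 1.59 to 52.5 in the controls and was 4.55, 12.4, 52.2 and 10.5 in labelled libraries 1 to 4. Most of it was S100a8 and S100a9, while the lineage marker Ly6g was at 0 in all libraries but labelled library 3 (0.220). That Ly6g value rested on at most 1.05 implied fragments. S100a8 was highest in control 4 (27.6), where Cxcr2 was 0.0551.

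The interferon-induced chemokines Cxcl9, Cxcl10 and Cxcl11, which attract T cells through CXCR3, lie together on chromosome 5 (92750357 to 92794511). Cxcl10 was 0.824, 0.606, 1.56 and 0.536 in the controls and 3.43, 1.17, 5.11 and 0.728 in the labelled libraries. Labelled libraries 2 and 4 lay within the controls (log2 0.79, SE 0.41, adjusted p = 0.213), and its locus overlaps Art3. Cxcl9 was 0.0943, 0.127, 0.0417 and 0.344 against 1.16, 0.419, 0.90 and 0.168. Cxcl11 was 0, 0, 0 and 0.0517 against 0.426, 0.164, 0.227 and 0. Cxcr3 was 0.0834, 0.218, 0.0845 and 0.297 in the controls and 1.13, 0.336, 0.753 and 0.326 in the labelled libraries, just without overlap and below the minimum for testing.

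Cxcl12, the homeostatic chemokine of stromal cells, was among the highest members throughout. It was 6.55, 8.30, 8.33 and 11.2 in controls 1 to 4 and 23.6, 9.55, 25.4 and 9.04 in labelled libraries 1 to 4. Labelled libraries 2 and 4 lay within the controls (log2 0.78, SE 0.36, adjusted p = 0.181; 1.31 and 0.05 within the prefixes). Its receptor genes behaved differently from it. Cxcr4, its signalling receptor on leukocytes, was 0.192, 0.916, 0.382 and 1.21 in the controls and 2.17, 2.44, 2.55 and 0.736 in the labelled libraries (log2 0.82, SE 0.30, adjusted p = 0.130). Here labelled library 2 was as high as 1 and 3. Cxcr7 (chromosome 1, 92100555 to 92113326), the scavenging receptor now named Ackr3, was 1.41, 1.69, 1.46 and 1.49 in the controls. It was 2.49, 2.23, 2.00 and 2.64 in the labelled libraries, with labelled library 4 the highest. The ratio of means was only 1.54, but the spread was small and the groups did not overlap (log2 0.41, SE 0.12, adjusted p = 0.106; 0.48 and 0.34 within the prefixes). The size depended on the scaling. It was 0.19 (SE 0.14) under quantile normalization and 1.33 under implied fragment totals, where the median of all genes was 1.14.

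**Figure D4:**
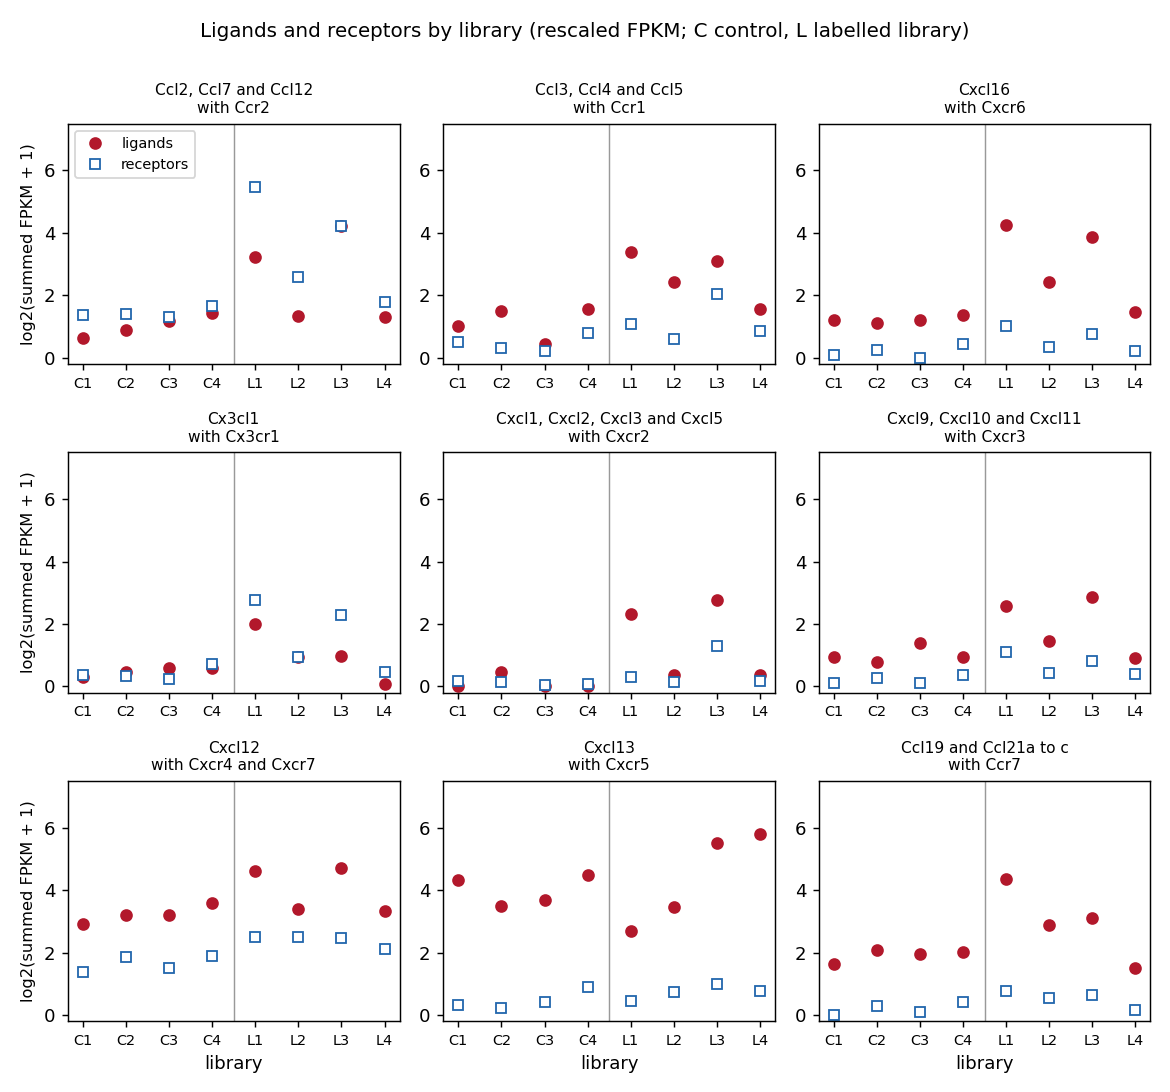
Summed rescaled FPKM of the ligands (filled circles) and receptors (open squares) of 9 chemokine axes in each library, as log2(sum + 1), with controls left of the grey line. The sum of Ccl2, Ccl7 and Ccl12 stands at 8.45 and 17.6 rescaled FPKM in labelled libraries 1 and 3, with 0.558 to 1.72 in controls, and at 1.53 and 1.45 for labelled libraries 2 and 4, whereas Cxcl13 is lowest in labelled library 1 and highest in labelled library 4.

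The lymphoid chemokines did not share 1 pattern. Cxcl13, which attracts B cells through CXCR5, had the highest control mean of all members. It was 19.3, 10.2, 11.8 and 21.5 in the controls and 5.54, 9.98, 44.9 and 54.8 in the labelled libraries. Labelled libraries 3 and 4 were above every control and labelled libraries 1 and 2 below every control (log2 0.37, SE 0.69, adjusted p = 0.719; 0.34 and -0.43 within the prefixes). The Cxcl13 values rested on 111 to 1737 implied fragments. Cxcr5 was 0.243, 0.167, 0.328 and 0.864 in the controls and 0.378, 0.674, 0.993 and 0.707 in the labelled libraries. The sum of 5 B cell markers lay between 3.78 and 15.2 in controls and was 7.08, 10.3, 24.8 and 12.8 for labelled libraries 1 to 4, so labelled library 4, highest for Cxcl13, was within the controls for them.

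The Ccl21 genes, whose product guides T cells and dendritic cells through CCR7, were highest in labelled library 1. Ccl21a was 1.04, 1.29, 1.29 and 1.04 in the controls and 7.92, 2.91, 2.94 and 0.897 in the labelled libraries (log2 0.89, SE 0.40, adjusted p = 0.172). Labelled library 4 was below every control. Ccl21b and Ccl21c are almost identical to it in sequence, so that the assignment of reads among the copies is uncertain, and they too were highest in labelled library 1 and lowest in labelled library 4 (4.63, 1.69, 1.56 and 0.306 for Ccl21b, and 5.0, 1.67, 1.62 and 0.341 for Ccl21c). Ccl19, the other CCR7 ligand, was 0.172, 0.249, 0.123 and 0.486 in the controls and 2.15, 0.0613, 1.47 and 0.303 in the labelled libraries. Ccr7 was 0, 0.238, 0.0674 and 0.336 against 0.714, 0.465, 0.553 and 0.110. The sum of 6 T cell markers was 0.848 to 3.10 in the controls and 9.84, 4.39, 7.05 and 6.17 in the labelled libraries, without overlap. The sum of 4 lymphatic and lymph node stroma markers was 4.53 to 5.16 and 8.43, 4.38, 12.1 and 4.91. The part of these cells in the values was not tested.

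Other tested chemokines overlapped between the groups. Ccl11, the eosinophil chemokine eotaxin, was 6.12, 7.78, 6.74 and 6.10 in the controls and 10, 6.46, 5.56 and 3.79 in the labelled libraries. Its log2 fold change was -0.10 (SE 0.24, adjusted p = 0.779). It lies between Ccl7 and Ccl12 in the cluster that also holds Ccl2, Ccl8 and Ccl1 (chromosome 11, 81849073 to 82119192), so neighbours at 1 locus differed widely. Ccl25, a thymic and gut chemokine, was 0.366, 1.90, 1.34 and 1.63 against 1.03, 0.577, 1.34 and 0.763 (log2 -0.22, SE 0.27, adjusted p = 0.574). Ccl27a was 0.750, 2.47, 0.303 and 0.961 against 2.12, 2.42, 2.29 and 1.19 (log2 0.58, SE 0.30, adjusted p = 0.220). Cxcl14 was 2.31, 1.8, 2.73 and 1.89 against 8.67, 1.02, 4.58 and 2.09, with labelled library 2 below every control (log2 0.44, SE 0.43, adjusted p = 0.482). With these standard errors the 4 values do not show equal levels in the groups. Ccl25 and Cxcl14 also differed in direction within the prefixes (0.57 and -0.73 for Ccl25, 0.73 and -0.62 for Cxcl14), a difference that did not pass the test of an interaction in limma (lowest adjusted p of any member 0.962).

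The mucosal chemokine Cxcl17 was listed at 0 in all 4 controls and was 1.76, 0.376, 1.39 and 0.449 in labelled libraries 1 to 4, on at most 48.0 implied fragments. Ccr3, the eotaxin receptor of eosinophils, was 0, 0.0401, 0 and 0.0272 in the controls and 0.364, 0.241, 0.659 and 0.0653 in the labelled libraries. Ccl24, another ligand of it, was 0.532, 0.455, 0.615 and 1.00 against 0.35, 0.987, 1.57 and 1.39. The other untested members, which were Ccl1, Ccl17, Ccl20, Ccl22, Ccl26, Ccl27b, the second Ccl25 ID, Ccr4, Ccr6, Ccr8, Ccr9, Ccr10 and Cxcl15, were below 1 in every library. Ccl1, Ccl26 and Ccr8 were each above 0 in a single library.

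Of the cytokines, Il33 and Il18 reached the minimum for testing and Il1a, Il1b, Il6 and Tnf did not. Il33, a nuclear alarmin of stromal cells, was 3.03, 4.12, 1.44 and 2.39 in the controls and 7.26, 1.86, 6.82 and 1.69 in the labelled libraries. Labelled libraries 2 and 4 lay within the controls (log2 0.39, SE 0.43, adjusted p = 0.537), and the log2 fold change was -0.38 without labelled libraries 1 and 3. Il18, processed by the inflammasome, was 0.915, 0.400, 0.199 and 1.26 against 3.09, 1.40, 2.73 and 0.818 (log2 0.80, SE 0.32, adjusted p = 0.146).

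Il1b, the main secreted IL-1 of macrophages, was 0.214, 0.0830, 0.0856 and 0.122 in the controls and 1.32, 0.306, 3.36 and 0 in the labelled libraries. It thus spanned the widest range of the untested cytokines, from the highest value to 0 within the labelled libraries. Tnf was 0.185, 0.158, 0 and 0.174 against 0.647, 0.129, 0.910 and 0.219. Il6 was listed at 0 in all controls and was 0.208, 0.0727, 0.290 and 0 in the labelled libraries, on at most 10 implied fragments. Il1a (0.0560 to 0.192 in the controls, 0.0790 to 0.147 in the labelled libraries) and Ptgs2, the inducible cyclooxygenase (0 to 0.0872 and 0.0207 to 0.202), overlapped fully or nearly so.

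Both adhesion molecules were highest in labelled libraries 1 and 3. Vcam1 (chromosome 3, 115812938 to 115832606), which binds integrins of monocytes and lymphocytes, was 0.735, 1.12, 1.11 and 1.61 in the controls and 8.09, 1.68, 5.19 and 1.71 in the labelled libraries. The groups did not overlap, but control 4 lay just below labelled libraries 2 and 4 (log2 1.08, SE 0.40, adjusted p = 0.130; 1.62 and 0.24 within the prefixes). Icam1, which binds leukocyte integrins, was 0.724, 0.802, 0.955 and 1.28 against 6.33, 1.10, 3.96 and 1.20 (log2 0.90, SE 0.40, adjusted p = 0.169), with labelled libraries 2 and 4 inside the controls. Endothelial markers summed to 17.5 to 23.6 in the controls and 21.8, 18.9, 20.8 and 16.0 in the labelled libraries.

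Nfkbia had the lowest adjusted p of all members. It encodes IkB-alpha, which holds NF-kB in the cytoplasm and is itself induced by NF-kB, and its promoter carries the match shown above. Nfkbia (chromosome 12, 56590398 to 56593634, mm9) was 5.58, 7.75, 5.18 and 4.86 in the controls and 12, 9.35, 11.4 and 9.76 in the labelled libraries. All 4 labelled libraries, library 4 included, were above every control. The means were 5.84 ± 1.31 and 10.6 ± 1.29 (SD, n = 4), with a log2 fold change of 0.78 (SE 0.16, adjusted p = 0.0857; 0.87 and 0.60 within the prefixes). It was 0.64 without labelled libraries 1 and 3.

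The other feedback genes overlapped. Nfkbiz, a nuclear IkB protein, was 0.630, 1.78, 0.904 and 1.86 in the controls and 3.22, 1.55, 2.96 and 1.39 in the labelled libraries (log2 0.51, SE 0.27, adjusted p = 0.221). Socs3, the inhibitor of IL-6 and STAT3 signalling, was 1.25, 0.981, 1.30 and 2.71 against 2.02, 1.00, 3.96 and 3.35 (log2 0.44, SE 0.32, adjusted p = 0.346). Here labelled libraries 3 and 4 were highest.

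Genes of the pathways around these members also had positive medians, and none of them passed. Of the NF-kB pathway list 21 of 24 genes were tested, with 0 called in either direction, a median log2 fold change of 0.60 and 9 higher and 0 lower without overlap. As given above, 10.9% of all genes tested were higher and 7.62% lower without overlap, and the median of all genes was 0.10. Its 3 most abundant genes were Irak1 (log2 -0.64, adjusted p = 0.178, but 0.71 under implied totals), Rela (1.04, adjusted p = 0.104) and Chuk (0.10, adjusted p = 0.668). Of the cytokine receptors and antagonists 20 of 25 were tested, with 0 called, a median of 0.77, 8 higher and 1 lower without overlap. The most abundant were the TNF receptor gene Tnfrsf1a (log2 0.57, adjusted p = 0.141), the interferon gamma receptor gene Ifngr1 (1.27, adjusted p = 0.103) and the type I interferon receptor gene Ifnar2 (0.50, adjusted p = 0.229). Of the JAK-STAT3 list 9 of 11 were tested, with 0 called and a median of 0.49. Its most abundant genes were Jak1 (0.49, adjusted p = 0.112), Cish (-1.17, adjusted p = 0.141, but 0.03 under implied totals) and Stat3 (0.77, adjusted p = 0.113).

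Of the leukocyte adhesion list 9 of 14 were tested, with 0 called and a median of 0.70. Of the 9, 2 were higher without overlap, against 10.9% of all genes tested. The most abundant gene of this list, the integrin subunit Itgb1, had a log2 fold change of 0.56 (adjusted p = 0.184). Of the inflammasome and prostaglandin list 10 of 12 were tested, with 0 called, a median of 0.79 and 1 higher without overlap, a share near that of all genes. Its most abundant gene was Alox5ap, which encodes the activating protein of leukotriene synthesis (log2 2.76, adjusted p = 0.109), on 0.0226 to 16.6 implied fragments. Of 14 chemokine system symbols outside the naming pattern, 11 gene IDs were found and 5 tested, with 0 called and a median of 0.85. Among them were Rarres2, which encodes chemerin (1.09, adjusted p = 0.104), the platelet chemokine gene Pf4 (0.93, adjusted p = 0.136) and Cmklr1, the chemerin receptor gene (0.75, adjusted p = 0.142). The groups of Rarres2 did not overlap. These lists overlap the myeloid and stromal genes described above in the cells that express them, and were written with earlier results of these data known.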

How the data were processed

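Per the submitters' processing notes, CASAVA 1.8, TopHat2 2.0.4, Bowtie and Cufflinks 2.0.1 were used with the builds mm9 and NCBIM37. Per the labels' protocols, the RNA had integrity numbers of 7.1 to 8.8 and the TruSeq libraries 8 cycles of PCR. The sources used here do not give the scaling option, read length or strand. The authors deposited 1 table of gene FPKM with interval bounds per sample, of 36448 entries. Entries sharing an ID were added up, which concerned 14 IDs.

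Because the values were far above the usual scale, which was noticed on inspection, all deposited FPKM were divided by 100000. The 8 genes (digestive enzymes) with the status HIDATA in any library were left out, and every member had the status OK in all 8. Cufflinks assigns shared fragments by likelihood, and the loci of 17 members overlap another, so their values are uncertain. Fragment numbers implied by interval widths describe depth only, their totals leave out the HIDATA genes, and no count test was run.

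Genes with a mean of at least 1 (11860) entered limma 3.58.1 (R 4.3.3), on the scale log2(rescaled FPKM + 1) and with an intensity trend, two-sided, adjusted by Benjamini-Hochberg at 0.05. Fold changes on that scale understate low genes. On simulated data with the spread of the controls, 11860 genes and 4 against 4, the share of changed genes called was 28% at a log2 size of 0.5 and 62% at 1. It was 98% at 2 and 96% at 3. In many members, such as Ccl8 and Ccr2, the labelled libraries spread far more widely than the controls. The changed genes were also drawn only from genes with a control mean above 2 on the log2(rescaled FPKM + 1) scale. Many tested members, among them Ccl8, Ccr2 and Cxcr7, lay below that level in the controls. The share called at the wider spread or at lower levels was not tested, so these percentages do not apply to such members. Samples were grouped by the genotype label. Gene coordinates (mm9) come from the deposited tables and are given 1-based, and promoters are from RefSeq on GRCm38.p6. The rule and counts include 1 member that is not reported here. The members and lists were chosen with earlier results of these data known. Named by rule are Gata6, tested members without overlap, the 8 of highest mean and the 12 added genes, with ligands and receptors of 1 axis side by side and, of each pathway list, the most abundant genes. Alternatives covered the pseudocount, the minimum, 4 scalings, the variance model, the title prefix and left-out libraries.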

Additional observations from a re-analysis of the deposited data

Results flagged for a closer look

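Among 43 groups of 4 values of the named genes, 2 held a library far from the other 3 by Dixon's ratio of gap to range at its 95% critical value, where chance flags about 1 in 20. Tnf was 0 in control 3 and 0.158 to 0.185 in the other controls (ratio 0.856). Il1a was 0.192 in control 1 and 0.0560 to 0.0788 in the other controls (ratio 0.833). Il1a also differed in direction between title prefixes. All 3 labelled libraries with BKD titles lay below control 1, by a mean of -0.10 on the log2(value + 1) scale, while labelled library 2 lay above controls 2 to 4, by 0.02. That difference was not tested, and both flags of Il1a rest on control 1.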

How the results depend on the processing

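No member was called lower in any of the 22 other settings, and none was called higher except without labelled library 4. Leaving out 1 library at a time gave 0 to 13 members called higher, a median log2 fold change of 0.66 to 1.07 and 8 to 16 members whose groups did not overlap, the last count added after seeing the data. The median was 0.81 with all libraries. It moved to 1.26 and 0.39 with pseudocounts of 0.1 and 5, to 0.49 with no expression minimum (67 members) and to 1.82 with a minimum of 5 (10 members). The minimum was set on the mean over all libraries. Some of the 10, among them Ccl8, Ccr2 and Cxcl16, reached 5 only through the labelled libraries, where they were high. That selection favours positive values, so the move to 1.82 does not show a larger change. It was 1.45 under equal-sum scaling outside the digestive enzymes and 1.71 under implied fragment totals, where all genes had 0.84 and 1.14. Within BKD titles it was 1.12, within ASK plus BSH titles 0.54, and it was 0.32 when labelled libraries 1 and 3 were both dropped. Fits with 1 library in a group assume that it varies like the others. Of 17 named genes tested, 3 changed sign somewhere (Cxcl13, Il33 and Socs3). Tested members outside the 17 also did, among them Ccl2, Ccl7, Ccl11, Ccl25 and Cxcl14, as given above. Cxcl13 had -0.05 with the prefix as a covariate, -0.43 within ASK plus BSH titles and -0.10 to 0.93 with 1 library left out (-0.01 without labelled library 3). Within ASK plus BSH titles Il33 had -0.28 and Socs3 -0.36, and Il33 had -0.38 when labelled libraries 1 and 3 were both dropped. The cause was not tested. No paired analysis was possible because the labels give no replicate numbers. An interaction of label and prefix was called for 0 members in limma, with a lowest adjusted p of 0.962.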

Other observations

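Some genes of the surrounding pathways stood out, all chosen after their values were seen and none past the threshold with all 8 libraries. Il1rn, which encodes the antagonist of IL-1, lay at 0.0465 to 0.416 (rescaled FPKM) in controls and at 6.20, 0.861, 5.99 and 0.462 in labelled libraries 1 to 4 (log2 fold change 1.44, adjusted p = 0.134). Relb, an NF-kB subunit of the noncanonical arm, ranged from 0.938 to 1.13 and was 5.95, 2.44, 8.66 and 3.86 (log2 1.51, adjusted p = 0.0752). Tnip1, which restrains NF-kB together with TNFAIP3, ranged from 1.41 to 3.82 and was 7.07, 9.80, 11.4 and 6.04 (log2 1.57, adjusted p = 0.0544). In these 3 genes no labelled library reached down to a control, but values rested on as few as 0.279, 3.56 and 1.72 implied fragments. Without labelled library 4 their adjusted p was 0.0414, 0.0361 and 0.0321.

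Alox5ap had a pattern of its own among the lists. It ranged from 3.11 to 13.0 in the controls, was 81.1, 72.6 and 89.1 in labelled libraries 1 to 3, and was 6.31 in labelled library 4, inside the controls. These values rest on only 0.0226 to 16.6 implied fragments, so they are uncertain. Lifr, the receptor of leukemia inhibitory factor, went the other way, from 9.77 to 14.9 in the controls to 4.23, 7.68, 4.46 and 9.30 in the labelled libraries (log2 -0.94, adjusted p = 0.104, but 0.31 under implied fragment totals). Cish, a target of STAT5, ranged from 8.32 to 21.3 and was 2.02, 3.80, 5.65 and 12.2 (log2 -1.17, adjusted p = 0.141, and 0.03 under implied totals), with labelled library 4 inside the controls.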
